A study of Mus musculus with 58 samples.

Results

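The genes described here are the 27 genes that encode the enzymes, transporters, receptor subunits and scaffolds of GABA and glycine synapses. They were chosen by name, with earlier results of these data known. All 27 of 27 were listed in each of the 6 deposited count tables, among 54532 genes in the RNA-seq tables and 18411 genes in the footprint and lysate RNA tables. Striatum came from young adult mice of the strain labelled B6129S. The 3g del/+ mice carry premature stop mutations in Taok2, Sez6l2 and Mvp on 1 copy of chromosome 7, made with CRISPR/Cas9. The 16p11.2 del/+ mice have lost 1 copy of the mouse region that matches human 16p11.2, which holds the same 3 genes and others. Each line was compared with its own wild-type (wt) mice, which carry neither change. The study's methods name C57BL/6J males as sires of the edited 3g embryos, and the 16p11.2 mice were purchased. Whether the lines share a genetic background is therefore not settled by the sources. RNA-seq covered 4 libraries for each line, genotype and sex, 32 in all. Ribosome footprints (the messenger RNA fragments covered by ribosomes) and RNA of the same tissue lysate were sequenced in males only. The 3g line gave 3 wt and 3 del/+ lysates, and the 16p11.2 line gave 4 wt and 3 del/+ lysates. Neither genetic change is confined to the striatum, so effects within it cannot be told apart from effects on the inputs it receives. The study's methods count the RNA-seq libraries as samples of male and female mice, but no source used here states for each lysate that it is a separate animal, so p-values measure the spread between these samples, and the lines cannot be told apart from their library sets.

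Most neurons of the striatum release GABA. The enzymes Gad1 and Gad2 make GABA from glutamate, Slc32a1 loads GABA and glycine into vesicles, Slc6a11 and Slc6a13 are plasma membrane transporters that clear GABA, and Abat breaks it down. GABA-A receptors are chloride channels built of 5 subunits, GABA-B receptors are G-protein-coupled pairs of Gabbr1 and Gabbr2, and glycine receptors combine alpha subunits with Glrb. Gphn, gephyrin, is the scaffold that holds glycine receptors and many GABA-A receptors at the synapse, and Nlgn2 is an adhesion protein of inhibitory synapses.

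RNA-seq libraries held 11711099 to 65529807 counts in the 3g line and 26592767 to 41300015 in the 16p11.2 line, lysate RNA libraries held 15102576 to 19122488, and footprint libraries held 342052 to 678130. Values are counts scaled to library size (CPM), computed within 1 line and 1 assay, and 3 counts corresponded to 4.42 to 8.77 CPM in a footprint library but to at most 0.256 CPM in an RNA-seq library. In RNA-seq of the 16p11.2 line Sez6l2 stood at 121 to 157 CPM in del/+ and 278 to 380 CPM in wt, and in the 3g line at 200.1 to 232 CPM in del/+ and 285 to 349 CPM in wt. Taok2 was at 79.4 to 90.7 CPM in del/+ and 148 to 186 CPM in wt of the 16p11.2 line, whereas the 3g groups overlapped at 166 to 204 and 184 to 190 CPM. The list of 8 spiny projection neuron markers was present in every library, at a sum of 3574 to 6583 CPM in RNA-seq. The library 3g wt male 17 lay away from its group on an axis drawn from the wt females of the 3g line at 0 to those of the 16p11.2 line at 1 (0.824, other 3g libraries -0.078 to 0.176), as did 16p11.2 del/+ male 4 (0.216, others 0.792 to 1.22). Both sex markers went against the label of 16p11.2 del/+ female 1. Its Ddx3y, a gene of the Y chromosome, was at 37.03 CPM, with 0 in the other del/+ females and 32.9 to 40.1 in the del/+ males, and its Xist at 0.444 CPM, with 308 to 880 in the other del/+ females. It was kept as labelled, and without it 0 members were again called in 16p11.2 females and for the sex difference (edgeR, 0 and 1 at an unadjusted p under 0.05). Several values below that turn on one of these libraries are given with and without it. In the 3g line the comparisons of footprints and lysate RNA with RNA-seq of wt males were fitted only with wt male 17 included.

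The synthesis and packaging genes were detected in every library of both lines. Gad1 ranged from 483 to 697 CPM with a median of 636 in the 16 RNA-seq libraries of the 3g line, and from 398 to 598 with a median of 473 in the 16p11.2 line. Gad2 ranged from 341 to 616 CPM (median 509) and from 250 to 396 CPM (median 305). Slc32a1 ranged from 151 to 210 CPM (median 187) and from 114 to 183 CPM (median 149). The extremes of Gad2 were the libraries that stood apart: 3g wt male 17 held the 341, the lowest of its line, and 16p11.2 del/+ male 4 the 396, the highest of its line. CPM values include transcript length, and no transcript lengths were used, so the order of levels between genes cannot be read from them.

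For uptake and breakdown, Abat had a median of 630 CPM in the 3g line (562 to 688) and 527 CPM in the 16p11.2 line (426 to 649), and Slc6a11, the GAT-3 transporter of astrocytes, had medians of 165 and 131 CPM. Slc6a13, the GAT-2 transporter found mainly in the leptomeninges, had a median of 5.61 CPM (3.52 to 7.66) and of 2.67 CPM (1.58 to 6.83). Among GABA-A subunits, RNA-seq medians in the 3g and 16p11.2 lines were 187 and 212 CPM for Gabra4 and 143 and 151 CPM for Gabrd, the pair that joins in extrasynaptic receptors of the striatum. They were 133 and 117 CPM for Gabrb1, 110 and 99.5 CPM for Gabrb2, 98.4 and 73.9 CPM for Gabra2, and 61.2 and 104 CPM for Gabra3. For Gabrg3 they were 64.1 and 52.1 CPM, for Gabra5 24.6 and 31.9 CPM and for Gabrg1 27.6 and 18.9 CPM. The lowest counts were those of Gabra6 and Gabrr1, neither of which was tested in RNA-seq. Gabra6, a cerebellar granule cell subunit, had 0 counts in 16 of 16 libraries of the 16p11.2 line and 0 to 2 counts in the 3g line, and Gabrr1, a subunit known from retina, had 0 to 10 counts. Gabrr2, also known from retina, had medians of 1.14 and 0.770 CPM, Gabrq 1.91 and 0.802 CPM, and Gabre 0.702 and 0.168 CPM.

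Gabbr1 had the lowest coefficient of variation across the 16 RNA-seq libraries of the 3g line, 3.63% about a median of 976 CPM, and 6.87% about 973 CPM in the 16p11.2 line. Nlgn2 varied by 4.81% and 5.31%, with medians of 275 and 280 CPM. Gphn had medians of 85.6 and 72.2 CPM and Glrb, the shared glycine receptor subunit, 168 and 166 CPM. The alpha subunits had medians of 15.1 and 16.8 CPM (Glra2) and 4.59 and 2.59 CPM (Glra3). Gabra2 spread more in the 16p11.2 line (28.1%, 44.3 to 101 CPM) than in the 3g line (9.49%, 85.9 to 122 CPM), a difference that was not tested. The order of the lines depended on the assay for several members, among them Gabbr2, Gabra5, Gabrd and Nlgn2. The RNA-seq median of Gabbr2 was 117 CPM in the 3g line and 218 CPM in the 16p11.2 line, but its lysate RNA median was 79.0 and 60.1 CPM and its footprint median 152 and 101 CPM. These tables were scaled separately, and the only 3g RNA-seq library above 159 CPM was wt male 17, at 218 CPM.

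**Figure D1:**
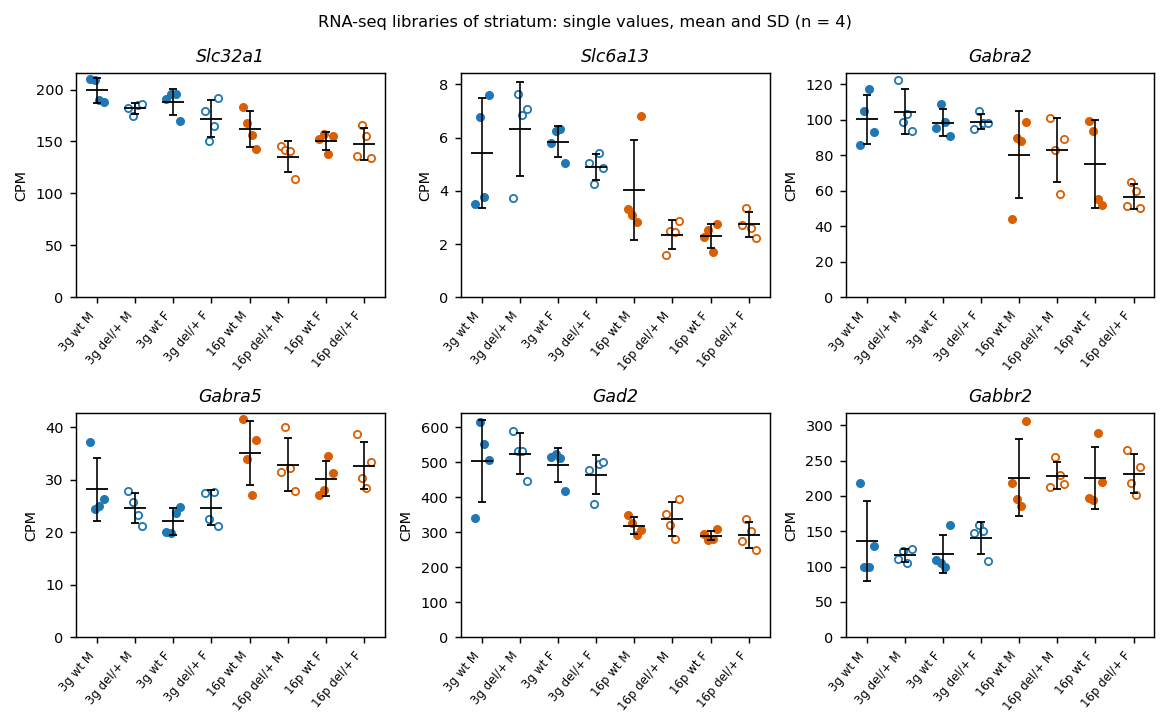
CPM (vertical axis, from 0) of 6 members in each RNA-seq library, in 8 groups of 4 by line, genotype and sex (M, males, F, females), with wt filled, del/+ open, and the mean and SD in black. Single libraries lead several groups: 3g wt male 17 for Gabra5 and Gabbr2, 16p11.2 wt male 4 for Slc6a13, and 2 of the 4 16p11.2 wt females for Gabra2.

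Several members lie in receptor gene clusters, given here on GRCm38, the build of the RNA-seq tables. Gabrg1, Gabra2, Gabra4 and Gabrb1 span chr5:70751047-72149572, Gabra3, Gabre and Gabrq chrX:72256926-72842607, and Gabra6 and Gabrb2 are on chromosome 11. Gabra5 and Gabrg3 at chr7:56716463-57591016 are the 2 members on chromosome 7, 69.3 Mb from Taok2, so no member lies in the deleted region.

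The first question was how many ribosome footprints these transcripts carried for their RNA in wt males. Both kinds of library were scaled before comparison, so more or fewer here and below means relative to all genes, not in absolute number. Slc32a1, Gabrd, Slc6a11 and Nlgn2 had more footprints than the RNA of the same lysates, and Gad2, Gabra4, Gabra3, Gabrb1, Gabra2, Gabrg3, Gphn, Glra3 and Abat had fewer, in both lines. For most of them, however, the result held only against the RNA of the lysates: against the RNA-seq libraries of wt males the footprint level of Gad2, Gabra4, Gphn and Abat alone among these was lower in both lines, and no member was higher in both. Both comparisons were fitted in edgeR (quasi-likelihood, p-values adjusted by Benjamini-Hochberg over every gene tested), and the comparison with RNA-seq was added after the data were seen.

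Against lysate RNA, 16 of 23 members tested were called at an adjusted p under 0.05 in the 3g line (5 higher, 11 lower) and 15 of 22 in the 16p11.2 line (6 higher, 9 lower). Of all genes, 20.6% were called higher and 23.7% lower in the 3g line, and 21.4% and 25.2% in the 16p11.2 line, so calls were frequent throughout. The median log2 value of the members was -0.63 and -0.21, beside -0.01 and -0.03 over all genes tested. Members not tested for low counts were Gabra6, Gabre, Gabrr1 and Gabrr2, and in the 16p11.2 line also Gabrq. Of the 22 members tested in both lines 14 were called the same way (5 higher, 9 lower) and 0 in opposite ways, and over all 13443 genes tested in both lines 15% were called higher and 20.1% lower in both. Across those 22 members the estimates had Pearson's r = 0.937 and Spearman's rho = 0.929, given as a description, since the lines shared the protocol and each estimate carries the gene's length and mapping; over all 13443 genes r was 0.827.

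The vesicular transporter Slc32a1 had 2.58-fold more footprints than lysate RNA in wt males of the 3g line (adjusted p = 0.000107) and 2.73-fold more in the 16p11.2 line (adjusted p = 8.75e-07, edgeR). Over all 13 lysates, both genotypes included, its log2 ratio lay between 1.04 and 1.73, with a median of 1.37. Gabrd, the delta subunit, was at 3.05-fold (adjusted p = 2.12e-05) and 2.83-fold (adjusted p = 1.68e-07), and its log2 ratio over the 13 lysates was 1.07 to 1.87. All 13 lysates were above 0 for these genes, and also for Slc6a11 (0.30 to 1.24) and Nlgn2 (0.06 to 0.98). In wt males Slc6a11 was at 2.10-fold and 1.80-fold (adjusted p = 0.00331 and 0.000243) and Nlgn2 at 1.59-fold and 1.67-fold (adjusted p = 0.00594 and 0.00074). Gabbr2 was near the threshold, at 1.48-fold and 1.43-fold (adjusted p = 0.0438 and 0.0128), and with the lysate number as a replicate block its call in the 3g line was lost (log2 0.53, adjusted p = 0.0589). For Slc6a13 a call was made in the 16p11.2 line (log2 2.15, adjusted p = 0.00202), from 3, 2, 4 and 7 footprints, and not in the 3g line (log2 1.09, adjusted p = 0.291), from 3, 2 and 1; the difference between lines was not tested.

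Gad2 had 3.51-fold less footprint than lysate RNA in the 3g line (log2 -1.81, SE 0.25, adjusted p = 8.52e-05) and 3.14-fold less in the 16p11.2 line (log2 -1.65, SE 0.16, adjusted p = 8.31e-08, edgeR). Its log2 ratio was negative in 13 of 13 lysates, -2.42 to -1.31, whereas that of Gad1, which makes the same product, was -0.95 to 0.04 and was not called (adjusted p = 0.446 and 0.239). Gabra4 was 2.91-fold and 3.06-fold lower (adjusted p = 8.74e-05 and 7.71e-08), Gabra3 2.96-fold and 2.74-fold lower (adjusted p = 0.000184 and 5.1e-07), and Gabrb1 differed by log2 -1.56 and -1.47 (adjusted p = 0.000168 and 5.63e-07). Gabra4 and its usual partner Gabrd thus lay on opposite sides of 0: the log2 ratio of Gabrd exceeded that of Gabra4 in 13 of 13 lysates, by 1.92 to 3.92. Such differences between genes also carry each gene's length and mapping, and the coding share of each gene's reads was not tested. The scaffold Gphn was at log2 -1.11 and -0.90 (adjusted p = 0.00101 and 0.000404), Gabrg3 at -0.92 and -1.19 (0.00273 and 0.000318), Gabra2 at -1.14 and -0.80 (0.00576 and 0.0145), and Abat at -0.71 and -0.60 (0.00565 and 0.00359). Glra3 was at log2 -2.01 and -1.50 (adjusted p = 0.011 and 0.0135), but these rest on 1, 1 and 2 footprints in the wt lysates of the 3g line and 1, 2, 4 and 2 in those of the 16p11.2 line. The calls of Gabra2, Gabbr2 and Glra3 were lost in each line when certain single lysates were left out, and those of Abat and Nlgn2 in the 3g line (adjusted p = 0.0623 and 0.0550).

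The members that were not called in either line were Gad1, Gabrb2, Gabbr1, Glrb and Glra2. Gabbr1 had the most footprints, 3773 over the 13 lysates, and its log2 ratio of 0.19 and 0.32 (adjusted p = 0.408 and 0.0564) varied over the 13 lysates by an SD of 0.142. Gabra5 and Gabrg1 were lower in the 3g line (log2 -1.07 and -0.98, adjusted p = 0.0048 and 0.014) but at -0.03 and 0.01 in the 16p11.2 line (adjusted p = 0.945 and 0.978), a difference between lines that was not tested.

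**Figure D2:**
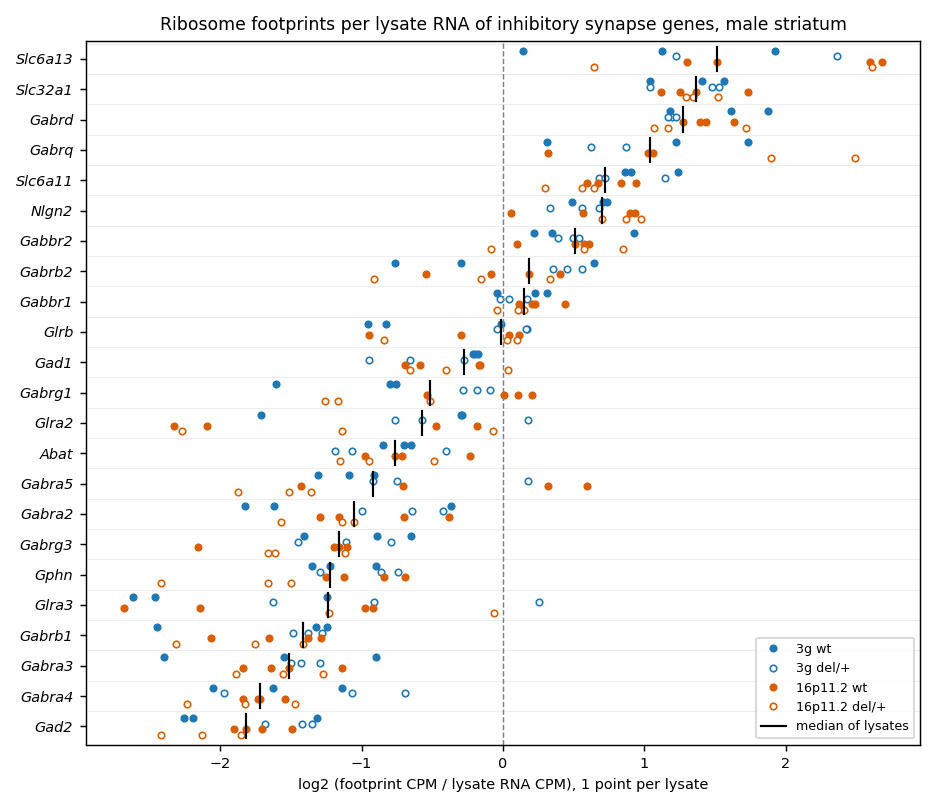
Log2 of footprint CPM over lysate RNA CPM (horizontal axis) for the 23 members with a ratio in 10 or more of 13 lysates, ordered by the median (black tick), 1 point per lysate, 3g blue and 16p11.2 orange, wt filled and del/+ open. All points of Gad2, Gabra4, Gabra3 and Gabrb1 are below 0 and all points of Gabrd and Slc32a1 are above 1, with wt and del/+ interleaved for most members.

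The span of a gene from its first to its last base on GRCm38 moved with these values. Across the members Spearman's rho between span and the log2 ratio of footprints to lysate RNA was -0.595 (n = 23, 3g line) and -0.530 (n = 22, 16p11.2 line), beside -0.173 and -0.155 over 13613 and 13336 genes. The 5 members called higher in both lines had a median span of 14.7 kb (8.49 to 329) and the 9 called lower 190 kb (72.9 to 671). Slc32a1 spans 8.49 kb, Gabrd 13.1 kb and Nlgn2 14.7 kb, while Gad1 spans 40.7 kb and Gad2 72.9 kb. These are descriptions across genes, which are not replicates, and the part of span in the result was not tested.

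The RNA of the lysates and the RNA-seq libraries of wt males of the same line gave different levels for many members. Relative to RNA-seq, lysate RNA of Gabrd was lower by log2 -1.53 in the 3g line and -1.66 in the 16p11.2 line, Slc32a1 by -1.43 and -1.63, Gad1 by -1.37 and -1.27, and Abat by -1.27 and -1.09. Lysate RNA was higher by 1.63 and 2.28 for Glra3, 1.43 and 1.03 for Gabra3, 1.38 and 1.21 for Gabra2, 1.19 and 1.22 for Gabrg3, and 1.02 and 1.10 for Gabrb1. The members' differences ranged from -1.53 to 1.63 in the 3g line and from -1.66 to 2.28 in the 16p11.2 line. Span moved with this difference too, with rho = 0.660 over 25 members and 0.557 over 24 (0.105 and 0.139 over all genes). The tables came from separate library preparations, with paired-end reads on mm10 for RNA-seq and single reads on mm39 for lysate RNA, and the parts of these differences cannot be told apart. The labels name a Ribo-Zero kit for RNA-seq but give its molecule as polyA RNA, so which RNA was selected is not settled by the sources.

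With RNA-seq of wt males in place of lysate RNA, 5 of 25 members were called in the 3g line (0 higher, 5 lower) and 10 of 24 in the 16p11.2 line (3 higher, 7 lower). Of all genes, 16% were called higher and 18.3% lower in the 3g line, and 22.1% and 24.2% in the 16p11.2 line. The median log2 value of the members tested was -0.10 and -0.15 against RNA-seq, beside -0.63 and -0.21 against lysate RNA. Of the calls made against lysate RNA, 4 of 16 were made in the same direction in the 3g line and 5 of 15 in the 16p11.2 line. The members lower in both lines against RNA-seq were Abat (log2 -1.95 and -1.66, adjusted p = 1.02e-05 and 3.48e-08), Gad2 (-1.73 and -1.07, adjusted p = 0.00114 and 1.35e-05), Gad1 (-1.51 and -1.52, adjusted p = 0.000143 and 4.23e-06), Gabra4 (-1.09 and -1.10, adjusted p = 0.00327 and 2e-05) and Gphn (-1.11 and -0.54, adjusted p = 0.00195 and 0.0186). Slc32a1 was at log2 -0.03 and -0.16, Gabrd at 0.11 and -0.14, and Nlgn2 at 0.11 and 0.003, none of them called (adjusted p at least 0.401 in edgeR). The only members called lower relative to both kinds of RNA in both lines were therefore Gad2, Gabra4, Gphn and Abat, and that of Abat against lysate RNA was lost in the 3g line without 1 wt lysate (adjusted p = 0.0623). The contrast between Gad1 and Gad2 depended on the RNA. The quotient of their CPM, which carries both transcript lengths and is compared only between assays, was 1.44 in footprints, 0.461 in lysate RNA and 1.23 in RNA-seq of 3g wt males, and 1.07, 0.421 and 1.503 in the 16p11.2 line. Gad2 had lower footprints than either RNA, while Gad1 moved from log2 -0.17 and -0.27 against lysate RNA to -1.51 and -1.52 against RNA-seq. For footprints over RNA-seq, Spearman's correlation with gene span was -0.189 and -0.062 across the members. Gabbr2 was called higher against lysate RNA and lower against RNA-seq in the 16p11.2 line (log2 0.52 and -0.58, adjusted p = 0.0128 and 0.0134).

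**Figure D3:**
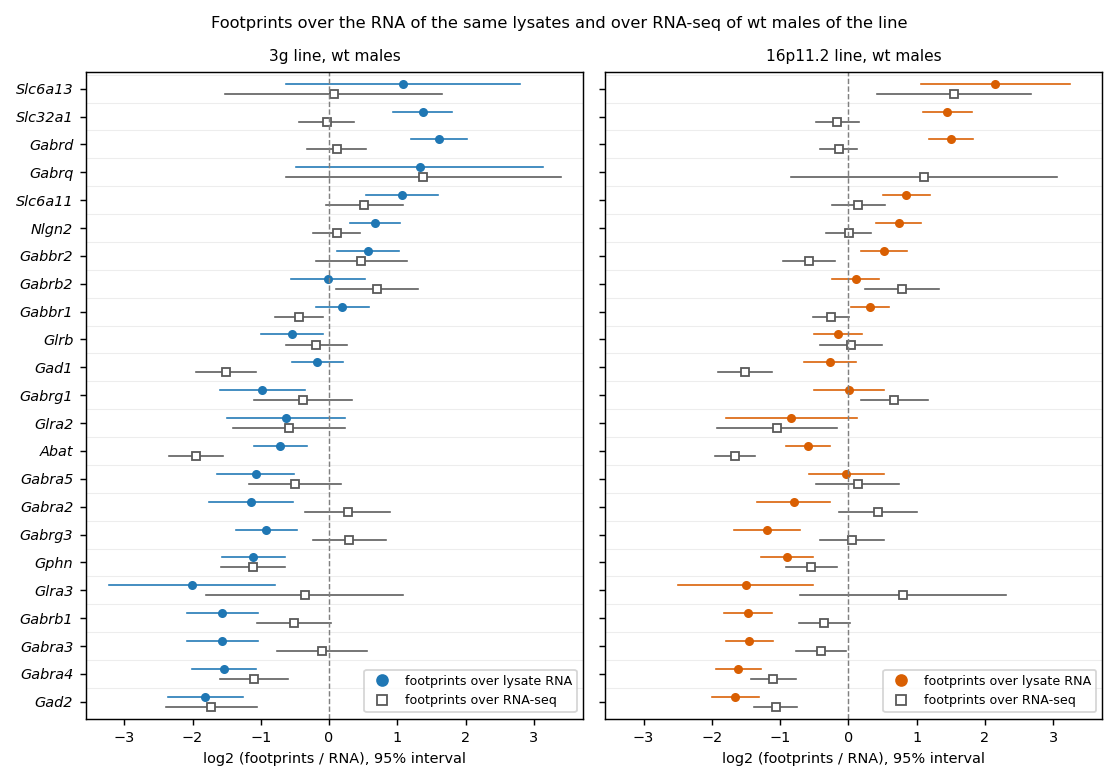
Log2 of footprints over RNA in wt males (horizontal axis, with 95% intervals) for 23 members in the 3g line (left) and the 16p11.2 line (right), once over the RNA of the same lysates (filled circles) and once over RNA-seq libraries of wt males of the line (open squares). Slc32a1 and Gabrd move from above 1 to near 0, Gad1 moves down to -1.51 and -1.52, and Gad2, Gabra4 and Gphn stay below 0 in both lines on either RNA.

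Among 31 other genes of inhibitory synapses (scaffold partners, chloride and amino acid transporters and trafficking proteins), 19 were called against lysate RNA in the 3g line (6 higher, 13 lower) and 20 in the 16p11.2 line (7 higher, 13 lower), beside the shares of all genes given above. Named after their values were seen, the chloride exporter Slc12a5 was at log2 1.09 and 1.03. Trak2, an adaptor for transport along microtubules, was at -1.86 and -1.70, and Gabarap, a trafficking protein named for its binding of GABA-A receptors, at -1.07 and -1.26.

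The second question was whether the members differed between del/+ and wt. No member was called in any comparison of genotypes. In RNA-seq 0 of 25 members were called in 3g males, where 0% of 19081 genes were called, and 0 of 25 in 3g females, where 0.00526% (1 of 19024) were called. In the 16p11.2 line 0 of 25 were called in males (0.106%, 19 of 17957 genes) and 0 of 24 in females (0.144%, 26 of 18067 genes). The test of whether the genotype difference differed between the sexes called 0 of 25 members in each line, with 0% of all genes called in the 3g line and 0% in the 16p11.2 line. In males 0 of 23 members were called in lysate RNA of each line (0.0209% and 0.133% of all genes), 0 of 18 and 0 of 17 in footprints (0.0132% and 0.117%), and 0 of 23 and 0 of 24 in footprints per lysate RNA (0% and 0.00664%). These counts are edgeR's, DESeq2 also called 0 in every comparison, and since calls were rare in all genes they say little about the members. In 3g males edgeR did not call even the mutated Sez6l2 in RNA-seq (200.1 to 232 CPM in del/+, 285 to 349 in wt). The lowest adjusted p of any gene in that edgeR comparison was 0.807, so a lack of calls there does not show a lack of difference. At an unadjusted p under 0.05 edgeR had 0, 2, 2 and 0 members in the RNA-seq comparisons in the order given, 0 and 1 for the sex difference, 0 and 1 in lysate RNA, 2 and 0 in footprints, and 2 and 3 in footprints per lysate RNA, with the 3g line first. In bulk tissue a smaller number of cells of a type and less RNA per cell cannot be told apart. Where groups below are said not to overlap, the members were named for a low p. The share of all genes with such groups is not given, so the separation of these small groups says little by itself.

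The intervals give what size of difference could be seen. The median 95% interval of a member extended to either side by 0.276 (males) and 0.155 (females) on the log2 scale in the 3g line, and by 0.324 (males) and 0.229 (females) in the 16p11.2 line. It extended 0.562 and 0.491 in footprints, and 0.620 and 0.604 in footprints per lysate RNA, a wider median interval than in RNA-seq. The median log2 difference of the members in RNA-seq was -0.0004 for males and 0.008 for females of the 3g line, and -0.05 for males and 0.02 for females of the 16p11.2 line, beside medians over all genes between -0.005 and -0.0001. The signs were mixed, with 12 members above and 13 below 0 in 3g males and 10 above and 15 below in 16p11.2 males. In footprints per lysate RNA 14 were above and 9 below in the 3g line (median 0.19, all genes -0.02), and 6 above and 18 below in the 16p11.2 line (median -0.15, all genes -0.06), with none called. The sign of the male genotype difference in RNA-seq and in lysate RNA was the same for 9 of 23 members in the 3g line and 12 of 23 in the 16p11.2 line. Among the other 31 inhibitory synapse genes 0 were called in every genotype comparison by edgeR, with 0 to 5 at an unadjusted p under 0.05.

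**Figure D4:**
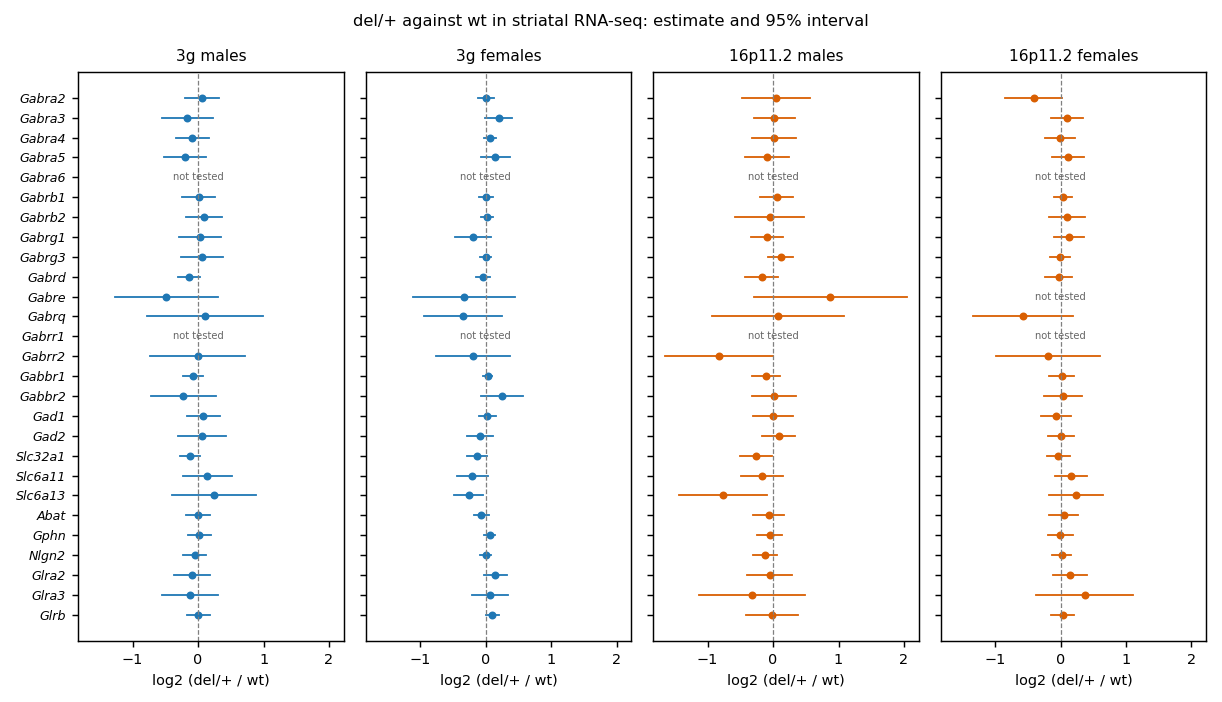
Log2 of del/+ over wt in RNA-seq (horizontal axis) for each member with its 95% interval, in 4 panels by line (3g blue, 16p11.2 orange) and sex. All but 4 intervals cross 0 (Slc6a13 and Glrb in 3g females, Slc6a13 and Slc32a1 in 16p11.2 males), and no adjusted p is under 0.05, and the widest intervals belong to members with few counts such as Gabre, Gabrq and Gabrr2.

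The members nearest to a genotype difference in RNA-seq of the 16p11.2 line were Slc6a13, Slc32a1 and Gabrr2 in males and Gabra2 in females. In males Slc32a1 was at 183, 167, 156 and 142 CPM in wt and at 145, 142, 141 and 114 CPM in del/+. The wt values were mostly higher and the groups overlapped at 142. The difference was log2 -0.26 (SE 0.11, adjusted p = 0.742, edgeR) and became -0.18 without del/+ male 4, the library that held the 114. Slc6a13 was at 3.32, 3.11, 2.82 and 6.83 CPM in wt and at 1.58, 2.49, 2.46 and 2.88 CPM in del/+. Its difference of log2 -0.76 (SE 0.31, adjusted p = 0.742) became -0.39 without wt male 4, the library at 6.83. That library also had the highest sum of 6 leptomeningeal markers, 36.1 CPM against 14.9 to 16.7 in the other wt males and 10.9 to 17.8 in del/+ males, with none of the 6 at 0 in RNA-seq, and the part of these cells in the value was not tested. Gabrr2 was at 0.624 to 1.80 CPM in wt and 0.456 to 0.933 CPM in del/+ males (log2 -0.82, SE 0.37, adjusted p = 0.742). In 16p11.2 females Gabra2 was at 99.4, 93.5, 55.6 and 52.2 CPM in wt and 51.2, 64.8, 60.1 and 50.3 CPM in del/+. Only 2 of the 4 wt libraries lay above the del/+ range, and the difference of log2 -0.41 (SE 0.20, adjusted p = 0.998) became -0.24 without wt female 1, -0.29 without wt female 2 and -0.37 without del/+ female 1. Slc6a13 also had the largest estimate for a difference between the sexes, log2 -1.002 (males minus females, adjusted p = 0.835), -0.63 once wt male 4 was left out and -1.006 without del/+ female 1. Female libraries held 1.71 to 2.76 CPM of Slc6a13 in wt and 2.24 to 3.37 CPM in del/+.

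In 3g males Slc32a1 was at 210, 209, 190 and 188 CPM in wt and 182, 174, 185 and 186 CPM in del/+, groups that did not overlap but differed by log2 -0.13 (SE 0.07, adjusted p = 0.974, edgeR). The estimate for Slc32a1 was thus below 0 in males of both lines, without a call in either. Gabrd was at 166, 149, 160 and 139 CPM in wt and 143, 131, 138 and 141 CPM in del/+ (log2 -0.14, SE 0.08, adjusted p = 0.974). Gabra5 was at 37.1, 24.3, 25.03 and 26.3 CPM in wt and 27.8, 25.8, 23.3 and 21.2 CPM in del/+, and its log2 value of -0.20 became -0.05 without wt male 17, the library at 37.1. In that library the sum of 5 cortical neuron markers was 2319 CPM, against 631 to 938 in the other 3g wt males. In 16p11.2 wt males the sum was 1803 to 2479 CPM, a range that holds the 2319. The part of these markers in the Gabra5 value was not tested. In 3g females Slc6a13 was at 5.80, 6.23, 6.31 and 5.05 CPM in wt and 5.05, 4.25, 5.42 and 4.86 CPM in del/+ (log2 -0.26, SE 0.10, adjusted p = 0.384), Glrb was 0.10 higher in del/+ (SE 0.04, adjusted p = 0.441) and Gabra3 0.20 higher (SE 0.09, adjusted p = 0.455). The lowest adjusted p of any alternative for these, 0.0675 for Gabra3 and 0.104 for Slc6a13, came from leaving out wt female 39.

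In the males used for footprints, lysate RNA of Nlgn2 in the 16p11.2 line was at 104, 91.1, 92.4 and 104 CPM in wt and 85.9, 81.0 and 81.3 CPM in del/+. These groups did not overlap, with a difference of log2 -0.24 (SE 0.10, adjusted p = 0.990). In 3g lysate RNA the members with the lowest p were Glra3 (log2 0.39), Gabbr1 (0.21) and Gabrg3 (-0.20), each with an adjusted p of 0.940. Footprints of Glrb in the 3g line were at 115, 184 and 110 CPM in wt (43, 73 and 42 counts) and 210, 241 and 195 CPM in del/+ (100, 169 and 116 counts). All 3 del/+ lysates lay above the wt lysates, with a difference of log2 0.66 (SE 0.24, adjusted p = 0.473). Footprints of Gabrd in the 3g line were at 118, 196 and 139 CPM in wt and 105, 107 and 109 CPM in del/+ (log2 -0.50, adjusted p = 0.6246), and those of Gad1 at 190, 219 and 189 CPM and at 134, 130 and 178 CPM (log2 -0.44, adjusted p = 0.662). In the 16p11.2 line footprints of Gphn were at 35.97, 45.9, 28.4 and 31.8 CPM in wt and 27.9, 12.8 and 27.3 CPM in del/+, from 5 to 21 counts each (log2 -0.63, adjusted p = 0.888).

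Footprints per lysate RNA rest on few counts for the members that came first. Gabra5 in the 16p11.2 line had log2 ratios of -0.71, -1.43, 0.32 and 0.59 in wt, from 8, 5, 16 and 24 footprints, and -1.87, -1.51 and -1.36 in del/+, from 3, 4 and 3 footprints. The difference was log2 -1.49 (SE 0.53, adjusted p = 0.764) and the groups overlapped. Gphn in that line had ratios of -0.84, -0.70, -1.25 and -1.12 in wt and -1.50, -2.42 and -1.66 in del/+, which did not overlap (log2 -0.81, SE 0.35, adjusted p = 0.764). Gabrg1 was estimated in opposite directions in the lines, 0.82 higher in 3g del/+ (adjusted p = 0.639) and -0.91 in 16p11.2 del/+ (adjusted p = 0.799), and this difference was not tested. Glrb in the 3g line had ratios of -0.96, -0.02 and -0.83 in wt and -0.04, 0.17 and 0.16 in del/+ (log2 0.66, SE 0.26, adjusted p = 0.581). The wt ratio of -0.02 lay within the del/+ range.

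**Figure D5:**
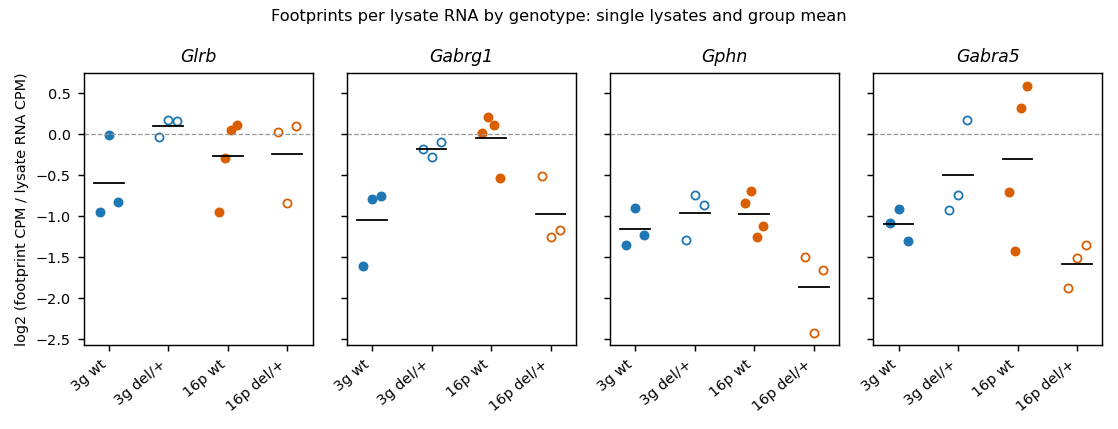
Log2 of footprint CPM over lysate RNA CPM (vertical axis) for Glrb, Gabrg1, Gphn and Gabra5 in wt and del/+ lysates of each line, points being single lysates and bars group means. The groups of Gphn in the 16p11.2 line and of Gabrg1 in the 3g line do not overlap, and the wt points of Gabra5 in the 16p11.2 line spread from -1.43 to 0.59.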

How the data were processed

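Per the labels and the study's methods, the authors prepared RNA-seq libraries with a Ribo-Zero kit (the labels also give polyA RNA as the molecule, and the stated read lengths differ) and deposited HTSeq counts per gene on mm10. Footprint and lysate RNA libraries were aligned with Bowtie2 to mm39, and the authors deposited counts per gene; the counting step and tool versions are not given in the sources used here. The tables are raw counts, normalized here and not by the authors. edgeR 4.0.16 in R 4.3.3 was run per comparison with filterByExpr, TMM factors and the quasi-likelihood test, with Benjamini-Hochberg adjustment over all genes tested and a threshold of 0.05. Footprints per lysate RNA were tested as the interaction of assay and genotype. CPM used TMM factors within 1 line and assay; ratios within a lysate used joint factors, and lysates with 0 counts gave no ratio. Alternatives were DESeq2 1.42.0, RLE factors, no filter, all 16 libraries of a line, a replicate block, leaving out each library or lysate and, chosen after seeing the data, RNA-seq of wt males in place of lysate RNA. Members named were mainly those called in both lines or, where none was called, drawn from the 3 with the lowest p. Not all 3 were named in every comparison. Footprint and lysate RNA libraries with 1 number come from 1 lysate by the labels. The r of their deviations was 0.046 to 0.125, and no r of libraries with different numbers is given beside it. For del/+ and wt 16p11.2 RNA-seq libraries of 1 number and sex r was -0.244 to 0.100, which overlaps that range. The r values therefore do not decide any pairing, and the numbers of the 16p11.2 RNA-seq libraries were not used as pairs in the main fits. The fits were tested on simulated counts. The members and the lists of other genes and markers were chosen with earlier results of these data known. Gene spans and positions are from RefSeq (GRCm38).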

Additional observations from a re-analysis of the deposited data

Results flagged for a closer look

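In 4 of 71 groups of at least 4 samples examined, 1 sample lay far from the others of its group by Dixon's criterion; chance flags about 1 in 20 groups. Gabra5 was at 37.1 CPM in 3g wt male 17, with 24.3 to 26.3 CPM in the other 3 libraries of that group. Slc6a13 was at 6.83 CPM in 16p11.2 wt male 4, with 2.82 to 3.32 CPM in the others. Slc32a1 was at 114 CPM in RNA-seq of 16p11.2 del/+ male 4, with 141 to 145 CPM in the others, and its footprints were at 77.1 CPM in 1 wt lysate of the 16p11.2 line, with 104 to 109 CPM in the others. The libraries 3g wt male 17 and 16p11.2 del/+ male 4 are those that lay away from their lines over all genes.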

How the results depend on the processing

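The genotype comparisons gave 0 members called under every alternative, the replicate block included (0 called for 16p11.2 males, females and their difference, and 0 and 0 for footprints per lysate RNA). Against lysate RNA, wt males had 13 to 17 members called in the 3g line and 13 to 16 in the 16p11.2 line over the alternatives fixed at the start; the block gave 15 and 16, and Gabbr2 in the 3g line was the call lost to it (adjusted p = 0.0589). Without a filter Gabbr2 in the 3g line had an adjusted p of 0.0864, and leaving out 1 wt lysate gave 0.0858 to 0.250. Leaving out a lysate also ended calls of Gabra2, Abat, Nlgn2 and Glra3 in the 3g line (adjusted p 0.0550 to 0.116) and of Gabra2, Gabbr2 and Glra3 in the 16p11.2 line (0.0520 to 0.0872). RNA-seq in place of lysate RNA changed most: 5 members called in the 3g line instead of 16. Signs turned for Gabra2 (log2 0.27 and 0.44, 3g and 16p11.2), Gabrg3 (0.30 and 0.059), Slc32a1 (-0.033 and -0.16), and in the 16p11.2 line for Gabrd (-0.14), Gabbr2 (-0.58) and Glra3 (0.80). Calls were lost in both lines for Gabra3, Gabrb1, Slc6a11 and Nlgn2, and in the 3g line for Gabrd, Gabbr2 and Glra3. The cause was not tested. Footprint libraries of at most 678130 counts limit every statement on single members.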
